A study of Mus musculus with 6 samples.

Results

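The 9 mouse genes described here, Zfp365, Inka2 (also Fam212b), Zmat3, Phlda3, Eda2r, Trp53inp1, Sytl1, Ei24 and Ak1, are linked to the tumour suppressor p53 and had more RNA in mechanically loaded stem cell constructs than in unloaded ones. They were chosen by name from earlier results of this same contrast, and are 9 of 16729 genes tested and of 50686 genes counted. RNA sequencing was performed on 3 ICF-treated and 3 unloaded control samples. ICF is an intermittent compressive force, here 1.5 g/cm2 at 0.23 Hz for 24 h. Both groups were iPSCs reprogrammed from mouse gingival fibroblasts, freed by trypsin from the SNL feeder cells they had grown on, aggregated into embryoid bodies with retinoic acid, attached to gelatin-coated plates and kept in serum-free medium, so that the groups differed in the load and in nothing else that the labels state. The labels name a donor 1 to 3 in each group, called the replicate here, whereas the methods give 3 independent experiments and mention no donor. Neither says whether samples of the same number shared a donor or an experiment, and p-values measure the spread between these samples.

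p53, encoded by Trp53 in the mouse, is a transcription factor that becomes stable after DNA damage and other stress and raises the transcription of genes for cell cycle arrest, apoptosis, DNA repair and metabolic adjustment. It binds DNA as a tetramer at a consensus element made of 2 adjoining half-sites, and it is held down by the ubiquitin ligase Mdm2, itself a p53 target. Because p53 is controlled mainly through the stability of its protein, the level of Trp53 mRNA is not a measure of its activity.

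The sequence just upstream of the gene start was examined for this consensus, because the 9 genes were grouped by their link to p53. RefSeq promoter windows of GRCm38.p6, from 250 bases before to 50 bases after a start, were given for 7 of the 9 genes in 11 windows (Zmat3 and Trp53inp1 had none). The search used the p53 consensus of a pair of half-sites without a spacer, which reads the same on both strands. With at most 2 mismatches it was matched in 1 of the 7 genes, Zfp365, and in 104 of 11642 tested genes with a window, or 0.893%. The match lies on the minus strand at chr10:67912706-67912725, outside any annotated gene body, and its first base is 63 bases before the start of Zfp365. The 250 bases upstream of Zfp365, chr10:67912663-67912912 on the minus strand, are shown 5′ to 3′ with the match in capitals.
Zfp365: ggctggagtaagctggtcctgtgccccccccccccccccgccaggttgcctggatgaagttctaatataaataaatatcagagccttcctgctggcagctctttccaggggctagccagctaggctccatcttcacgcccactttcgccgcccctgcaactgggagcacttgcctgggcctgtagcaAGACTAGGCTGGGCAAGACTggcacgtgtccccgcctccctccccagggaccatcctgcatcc
An exact half-site was present in 3 of the 7 genes and in 8.4% of the tested genes with a window. The 3 half-sites are shown in capitals with their flanks because they sit in different places relative to the transcripts, and the same half-site alone is common in mouse promoters.
Inka2: ctgtctgcccGGGCTTGTCTgccagcaggg
Sytl1: caaggccccGAGCTAGCCCtgtaggtgag
Ei24: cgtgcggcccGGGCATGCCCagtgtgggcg
The half-site of Inka2, chr3:105705377-105705386, is in an intron of the annotated gene and 81 bases before a second RefSeq start. That of Sytl1, chr4:133263319-133263328, is outside any gene body and 241 bases before the start. That of Ei24, chr9:36797335-36797344, is 10 bases before the RefSeq start but inside an exon in the GENCODE annotation, in its untranslated part. The windows of Phlda3, Eda2r and Ak1 held neither kind of match, which says only that these letters were not in these windows. The median GC content was 57.7% in the members' windows and 60.3% in the windows of tested genes.

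All 9 genes were higher with ICF in every sample than in any control sample. Among all tested genes, 15.62% had no overlap in this direction, and 3.47% (580) were called higher, that is with an adjusted p under 0.05 in edgeR's quasi-likelihood test. Since the genes were chosen by this contrast, nothing is read from their count against this background, and their values are given as a description with no test. The size of the difference varied widely, from 1.22-fold for Zmat3 to 4.67-fold for Inka2, with a median log2 fold change of 1.01 against 0.003 over all tested genes. A log2 fold change above 1 was seen in 5 of the 9 genes and in 0.825% of tested genes. The name strongly induced therefore fits Inka2, Zfp365, Sytl1, Trp53inp1 and Phlda3 by this measure, and does not describe Ei24 and Zmat3, which ranked 1472 and 2354 of the 16729 tested genes by log2 fold change. Phlda3 lay on the cut. Under alternative fits its log2 fold change ran from 0.931 to 1.105 and that of Eda2r from 0.734 to 1.006, so both crossed 1. Zfp365, Inka2, Phlda3 and Sytl1 also stand in a list of leading genes that the study drew from these samples, which is not independent evidence. Levels below are CPM, read counts scaled to a common library size with TMM factors, and each error of a log2 fold change is a standard error (SE) computed from the replicates' log2 CPM. In RNA from whole constructs, more RNA per cell and more cells that express a gene cannot be told apart.

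**Figure D1:**
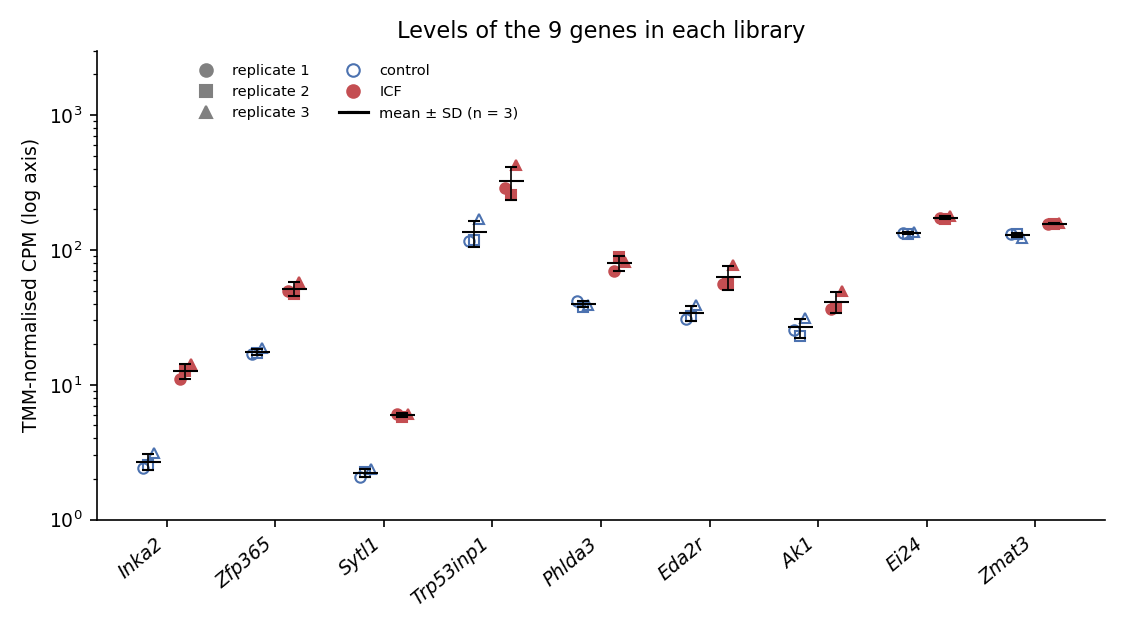
TMM-normalised CPM (log axis) of the 9 genes in each library, control in open blue and ICF in filled red, with the replicate given by the shape and black bars for the mean ± SD (n = 3). Every ICF point lies above every control point of the same gene, with the widest gap for Inka2 and the narrowest for Zmat3.

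Among the genes that act on DNA and RNA, Zfp365 (chr10:67886103-67912662, minus strand) had one of the larger differences. It encodes a zinc finger protein that helps cells to recover stalled replication forks and to keep the genome stable. Its level was 17, 17.1 and 18.7 CPM in control replicates 1, 2 and 3 and 49.7, 46.9 and 58.1 CPM with ICF. The lowest ICF sample stood well above the highest control, and the difference was 2.93-fold (log2 fold change 1.55, SE 0.10, n = 3 per group). Zmat3 (chr3:32334792-32366014, minus strand), which encodes a zinc finger protein that binds RNA, was an abundant gene with a small difference. Its level was 131.6, 131.0 and 123.5 CPM in the control and 156.2, 154.7 and 158.4 CPM with ICF. The samples of each group lay close together, with a coefficient of variation of 3.50% in the control and 1.19% with ICF, and the groups differed by 1.22-fold (log2 fold change 0.28, SE 0.03). Of the 75-base stretches of its longest transcript, 0.194% also occurred in other genes, where reads would have been lost or shared, and the other 8 genes had no such stretch.

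The genes that act in signalling included the largest difference of the 9. Inka2 (chr3:105704599-105720842, plus strand) encodes an inhibitor of the kinase PAK4, which shapes the actin cytoskeleton. Its level was 2.43, 2.52 and 3.13 CPM in the control and 11.0, 12.6 and 14.2 CPM with ICF. Control replicate 3 and ICF replicate 3 were the highest of their groups, and the groups differed by 4.67-fold (log2 fold change 2.22, SE 0.15), which ranked 8 among all tested genes. Phlda3 (chr1:135766119-135769136, plus strand) encodes a small pleckstrin homology protein that competes with the kinase AKT for membrane lipids and so restrains it. Its level was 41.9, 37.9 and 39.2 CPM in the control and 69.5, 88.7 and 81.3 CPM with ICF. Here ICF replicate 2 was the highest sample, and the difference was 2.01-fold (log2 fold change 1.01, SE 0.11). Eda2r (chrX:97333840-97377216, minus strand) encodes the receptor of the A2 form of ectodysplasin, a member of the tumour necrosis factor receptor family. Its level was 30.6, 32.4 and 38.7 CPM in the control and 55.8, 56.4 and 77.9 CPM with ICF. Replicate 3 stood above replicates 1 and 2 in both groups, and the difference was 1.87-fold (log2 fold change 0.90, SE 0.19) and 0.73 on the log2 scale without ICF replicate 3.

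The genes that act in apoptosis and autophagy differed in their spread between replicates. Trp53inp1 (chr4:11156431-11174379, plus strand) encodes a nuclear stress protein that cooperates with p53 and also takes part in autophagy. Its level was 116.8, 118.6 and 169.7 CPM in the control and 289.3, 256.0 and 427.8 CPM with ICF. Replicate 3 was far above the other replicates in both groups, the coefficient of variation was 22.3% in the control and 28.1% with ICF, and the difference was 2.40-fold (log2 fold change 1.26, SE 0.28). Ei24 (chr9:36779159-36797393, minus strand) encodes a membrane protein of the endoplasmic reticulum that is needed for autophagy. Its level was 132.8, 131.8 and 135.2 CPM in the control and 172.3, 170.6 and 178.4 CPM with ICF. The replicates were nearly level, with coefficients of variation of 1.33% and 2.36%, and the difference was 1.30-fold (log2 fold change 0.38, SE 0.02). An antisense gene, Gm26787, overlaps 6.66% of its exon bases but did not exceed 0.0696 CPM in any library.

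The remaining members act in vesicle traffic and nucleotide metabolism. Sytl1 (chr4:133253090-133263113, minus strand) encodes a synaptotagmin-like protein that links RAB27 proteins to secretory vesicles. Its level was 2.05, 2.24 and 2.37 CPM in the control and 6.05, 5.78 and 6.08 CPM with ICF, the lowest of the 9 genes in both groups. The difference was 2.69-fold (log2 fold change 1.43, SE 0.06), and the lowest count of Sytl1 in a library was 60, also the lowest of any of the 9 genes. Ak1 (chr2:32621758-32635058, plus strand) encodes the cytosolic adenylate kinase, which keeps adenine nucleotides in balance. Its level was 25.5, 23.0 and 31.4 CPM in the control and 36.3, 37.9 and 49.6 CPM with ICF. The highest control sample was not far below the lowest ICF sample, and the difference was 1.55-fold (log2 fold change 0.63, SE 0.19) and 0.49 on the log2 scale without ICF replicate 3.

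The order of the genes by abundance also differed between the groups when levels were expressed per kilobase of exon, with the exons of all annotated transcripts merged. The merged length was 4868 bases for Ei24 and 11435 for Zmat3, whose longest transcripts have 2309 and 7797 bases. For Phlda3 it was 1559 against 1435 bases, and for Trp53inp1 6475 against 5432. The order between genes therefore depends on the length chosen, and an order by transcript length was not computed. In the control, Ei24 was highest with 27.4 CPM per kb, followed by Phlda3 with 25.5 and Trp53inp1 with 20.9. The last of these overlapped Phlda3 in its range over samples, whereas Ei24 overlapped neither. Zmat3 (11.3 CPM per kb) and Ak1 (10.3) overlapped each other, and below them Eda2r (5.76), Zfp365 (3.38), Sytl1 (0.881) and Inka2 (0.564) were each separate from their neighbours in the order. With ICF, Phlda3 (51.2 CPM per kb) and Trp53inp1 (50.1) were highest and overlapped, and both were above Ei24 (35.7) in every sample. Ak1 (15.9) was above Zmat3 (13.7) without overlap, Eda2r (10.8) overlapped Zfp365 (9.91), and Inka2 (2.64) overlapped Sytl1 (2.37).

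The 9 genes were also compared within same-numbered pairs of samples. The median log2 ratio of the 9 genes was 0.87, 1.11 and 1.05 in pairs 1, 2 and 3, with an SD of 0.127 over the 3 pairs. For Trp53inp1 the log2 ratios were 1.31, 1.11 and 1.33, although its ICF level was 1.57 times as high in replicate 3 as in the mean of replicates 1 and 2. The widest spread was in Phlda3, with log2 ratios of 0.73, 1.23 and 1.05, and the narrowest was in Ei24, with 0.38, 0.37 and 0.40.

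**Figure D2:**
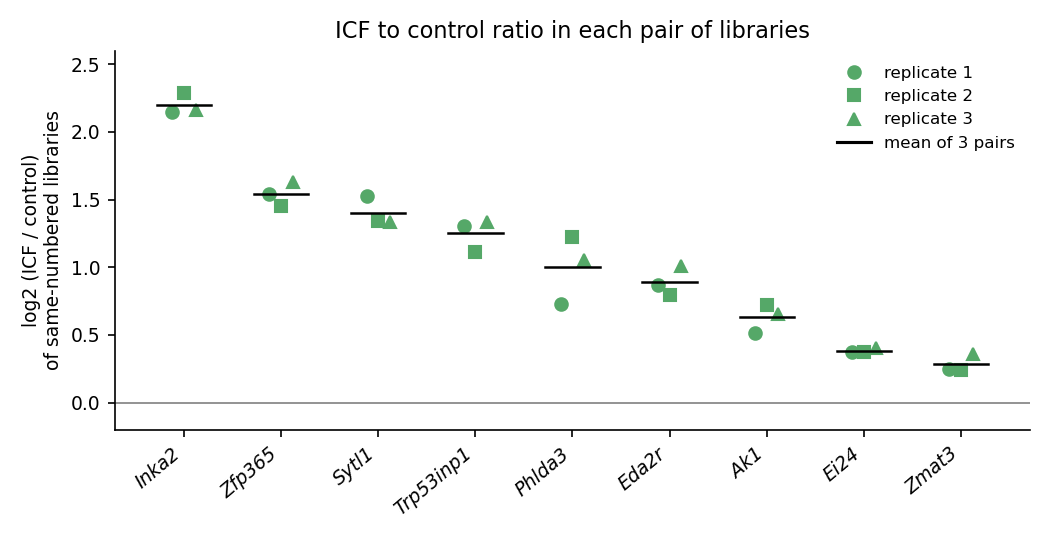
The log2 ratio of ICF to control CPM (y axis) in each pair of same-numbered libraries for the 9 genes, with the replicate given by the shape and a line at the mean of the 3 pairs. All ratios are above 0, and those of Phlda3 are the most spread, from 0.73 to 1.23.

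Replicate 3 was high for several of the genes with and without load. ICF replicate 3 was the highest ICF sample in 8 of the 9 genes, and Phlda3 was the exception. Control replicate 3 was the highest control in 7 of the 9. Among the tested genes that, like the 9, had every ICF sample above every control, ICF replicate 3 was the highest in 54.23% and control replicate 3 was the highest control in 47.38%, so each order alone was common in these libraries. Both replicate 3 libraries were the highest of their group in 7 of the 9 genes and in 27.48% of all tested genes, a difference that was not tested. For Trp53inp1, replicate 3 stood 1.44 times above the mean of the other replicates in the control and 1.57 times above it with ICF. The corresponding ratios were 1.23 and 1.39 for Eda2r, 1.30 and 1.34 for Ak1 and 1.26 and 1.21 for Inka2, whereas for Zmat3, Phlda3 and Ei24 they lay between 0.941 and 1.04.

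**Figure D3:**
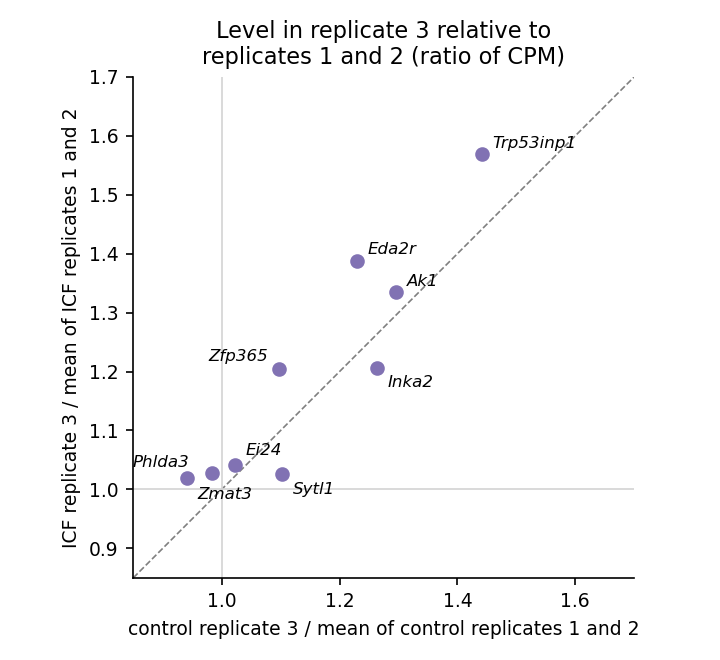
CPM of replicate 3 divided by the mean CPM of replicates 1 and 2, for the control (x axis) and for ICF (y axis), with 1 point per gene and the dashed line marking equal ratios. Trp53inp1, Eda2r, Ak1 and Inka2 lie at 1.2 or more on both axes, and Zmat3, Phlda3 and Ei24 lie near 1 on both.

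ICF replicate 3 also differed from the other libraries in its counts. In that library 89.0% of the counts above 0 were multiples of 4, against 20.3% to 21.5% in the others, and 20802 genes had a count, against 24340 to 24889. Replicate 3 of the control and of ICF had 6.24% and 6.04% of reads that HTSeq assigned to no feature, against 4.09% to 4.52% in the other libraries. The counts on genes summed to between 28711166 and 34194413 per library. Dividing the counts of ICF replicate 3 by 4 left the log2 fold changes at 1.26 for Trp53inp1, 0.88 for Eda2r and 1.42 for Sytl1. Scaling to library size largely cancels a constant divisor, so little change was fixed in advance. These values cannot show whether the origin of the multiples of 4 affected the genes. The part of this library in the height of replicate 3 was not tested.

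The levels of the 9 genes moved together over the 6 samples. Each gene's log2 CPM correlated with the mean of the other 8 with a Pearson r of 0.925 (Ak1) to 0.995 (Zfp365), a description that follows largely from the difference between the groups by which the genes were chosen. Among 9778 other tested genes with a mean of at least 10 CPM, the 5 with the profile most like the mean of the 9 genes over the 6 samples were Ccnh, 1500009L16Rik, Ppil3, Igsf9b and Pbdc1, with r of 0.9974, 0.9969, 0.9965, 0.9961 and 0.9956. The pattern did not need a large difference. Ccnh, which encodes the cyclin of the CDK-activating kinase, had levels of 66.3, 66.0 and 67.1 CPM in the control and 70.1, 70.5 and 71.0 CPM with ICF. Its log2 fold change of 0.085 did not pass the threshold (edgeR adjusted p = 0.38), whereas the others of the 5 were called higher. Igsf9b, an immunoglobulin superfamily gene, had the largest log2 fold change of the 5, at 0.67.

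The other genes of the p53 pathway were examined next, as a list of 56 genes by role of which 54 were tested. The list was drawn up with earlier results of these data known, and the study had reported p53 signalling among its upregulated pathways. Its share of calls beside that of all tested genes is therefore a description and not independent evidence. In edgeR's quasi-likelihood test at an adjusted p under 0.05, 20 of the 54 (37.0%) rose with ICF and 2 (3.7%) fell, against 3.47% and 4.38% of all tested genes, and 32 did not pass. The median log2 fold change of the list was 0.29. With the replicate number as a block, 30 rose (55.6%) and 7 fell (13.0%), against 14.6% and 15.3% of all tested genes. The count that rose was 8 without control replicate 2, 11 without control replicate 1 and 12 without ICF replicate 1, where 0.5%, 0.636% and 1.06% of all tested genes were called higher. Several of these genes, Btg2, Cpt1c, Plk2 and Ccng1 among them, also stand in the study's own list of leading genes from these samples.

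Of the genes that regulate p53, 4 of 8 tested rose. Trp53 itself was at 457.2, 439.9 and 414.7 CPM in the control and 455.3, 473.0 and 414.5 CPM with ICF, so the groups overlapped (log2 fold change 0.03, SE 0.07, edgeR adjusted p = 0.80). Mdm2, the ubiquitin ligase that removes p53, was at 107.5, 118.7 and 144.8 CPM in the control and 185.7, 176.6 and 274.5 CPM with ICF. Replicate 3 was again the highest in both groups, and Mdm2 rose by 0.78 on the log2 scale (SE 0.24, edgeR adjusted p = 0.030). Ccng1, a cyclin that recruits a phosphatase to Mdm2, rose by 1.00 (SE 0.18, edgeR adjusted p = 0.0043). Trp73, a relative of p53 with a similar DNA-binding domain, rose from a mean of 3.05 to 9.63 CPM (log2 fold change 1.66, SE 0.28, edgeR adjusted p = 0.0041). Mdm4, which blocks p53 without degrading it, had a log2 fold change of 0.43 (SE 0.19) that missed the threshold (edgeR adjusted p = 0.089, and 2.8e-08 with the replicate block).

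Among the genes of cell cycle arrest, 4 of 9 rose and 1 fell. Cdkn1a, which encodes the cyclin-dependent kinase inhibitor p21, was at 39.6, 37.9 and 45.1 CPM in the control and 55.5, 59.6 and 87.1 CPM with ICF, a rise of 0.72 on the log2 scale (SE 0.22, edgeR adjusted p = 0.031). Plk2, a polo-like kinase, rose by 1.18 (SE 0.18, edgeR adjusted p = 0.0025) and Btg2, an antiproliferative factor, by 0.74 (SE 0.06, edgeR adjusted p = 0.00081). Ccng2, a cyclin that is also a target of FOXO factors, fell from 43.7, 45.0 and 40.2 CPM to 20.8, 19.4 and 20.02 CPM (log2 fold change -1.10, SE 0.06, edgeR adjusted p = 0.00031). The calls of Mdm2, Cdkn1a and Polk, a translesion DNA polymerase (log2 fold change 0.77), were lost in edgeR without control replicate 1 or control replicate 2, and those of Mdm2 and Polk also without ICF replicate 1.

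Of the apoptosis genes, 5 of 11 tested rose and none fell. Pidd1, a death domain adaptor, rose by 0.71 on the log2 scale (SE 0.09, edgeR adjusted p = 0.0023), and the death receptor gene Tnfrsf10b rose by 0.63 (SE 0.15, edgeR adjusted p = 0.018), a call lost without control replicate 1 or 2. Bax, which permeabilises mitochondria, had overlapping groups and a log2 fold change of 0.03 (SE 0.09, edgeR adjusted p = 0.88). In DNA repair and nucleotide supply 2 of 6 rose. The damage recognition genes Ddb2 and Xpc had log2 fold changes of -0.04 and -0.20 and did not pass (edgeR adjusted p = 0.85 and 0.13), although Xpc passed with the replicate block (adjusted p = 0.025).

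In metabolism and oxidative stress 3 of 9 rose and 1 fell. Cpt1c, a carnitine palmitoyltransferase of the endoplasmic reticulum, rose by 0.67 (SE 0.05, edgeR adjusted p = 0.00095). Ddit4, a stress-induced inhibitor of mTORC1 that also answers to hypoxia, was lower with ICF at a log2 fold change of -0.94 (SE 0.21, edgeR adjusted p = 0.0097), a call lost without control replicate 2. Of the secreted, surface and signalling genes 2 of 11 rose. Thbs1, a matrix thrombospondin, had a log2 fold change of 0.61 (SE 0.26) that missed the threshold in edgeR (adjusted p = 0.099) and passed it with the replicate block (adjusted p = 3.3e-05). The stress cytokine Gdf15 was low, with means of 2.36 and 2.62 CPM, and its log2 fold change was 0.15 (edgeR adjusted p = 0.65). The genes named as not passing were picked after their values were seen.

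**Figure D4:**
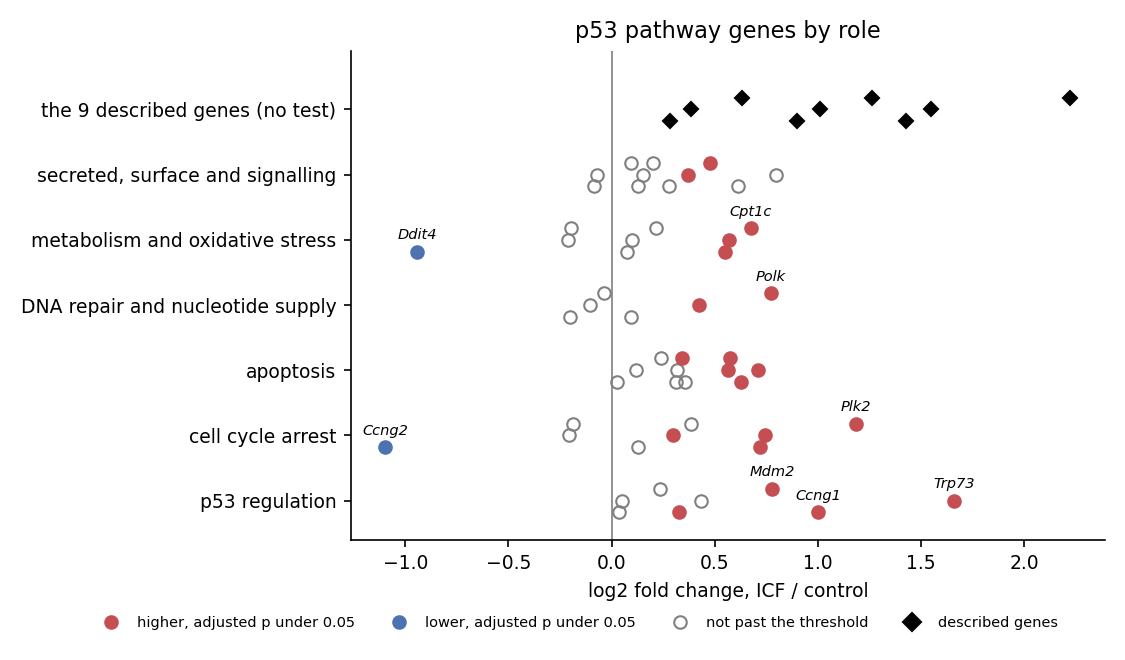
Log2 fold change of ICF against control (x axis) for the 54 tested p53 pathway genes by role (y axis), filled red where higher and filled blue where lower at an edgeR adjusted p under 0.05 and open grey otherwise, with the 9 described genes as black diamonds in the top row. The called genes run from -1.10 (Ccng2) to 1.66 (Trp73), and the 9 genes from 0.28 to 2.22.

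The close relatives and binding partners of the 9 genes were compared with them, as a list of 32 genes of which 28 were tested. In edgeR's quasi-likelihood test 1 rose and 1 fell (3.57% each, against 3.47% and 4.38% of all tested genes) and 26 did not pass, with a median log2 fold change of 0.02. With the replicate block 3 rose (10.7%) and 5 fell (17.9%), against 14.6% and 15.3% of all tested genes. Zfp385a, a zinc finger gene related to Zmat3 whose product binds p53, rose from 28.1, 28.6 and 25.7 CPM to 41.9, 44.9 and 38.9 CPM (log2 fold change 0.61, SE 0.08, edgeR adjusted p = 0.0039), a larger fold change than that of Zmat3 itself. Ak4, the mitochondrial relative of Ak1, went the other way, from 164.2, 167.0 and 167.4 CPM to 94.4, 89.3 and 112.8 CPM (log2 fold change -0.75, SE 0.10, edgeR adjusted p = 0.0020).

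Several paralogs of the members did not pass the test. Phlda1 and Phlda2, the nearest relatives of Phlda3, had log2 fold changes of -0.08 and 0.14 (edgeR adjusted p = 0.60 and 0.55). Trp53inp2, the paralog of Trp53inp1 that acts in autophagy, had a log2 fold change of 0.14 (edgeR adjusted p = 0.24). Inka1, the other PAK4 inhibitor, was near 1 CPM in both groups with a log2 fold change of 0.06 (SE 0.26, edgeR adjusted p = 0.93). Sytl2 and Sytl4, paralogs of Sytl1 with means of at most 1.19 CPM, had log2 fold changes of 0.58 (SE 0.26) and 0.60 (SE 0.18) in the direction of Sytl1 (edgeR adjusted p = 0.31 and 0.18), and the groups did not overlap for Sytl4. Rab27a, the small GTPase to which Sytl1 binds, had a log2 fold change of -0.27 (edgeR adjusted p = 0.074, and 0.00093 with the replicate block), and Zmat1, a low-level relative of Zmat3, had -0.86 (edgeR adjusted p = 0.052, and 0.013 with the block). These named genes that did not pass were also picked after their values were seen, and the difference between a member and its relative was not tested.

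**Figure D5:**
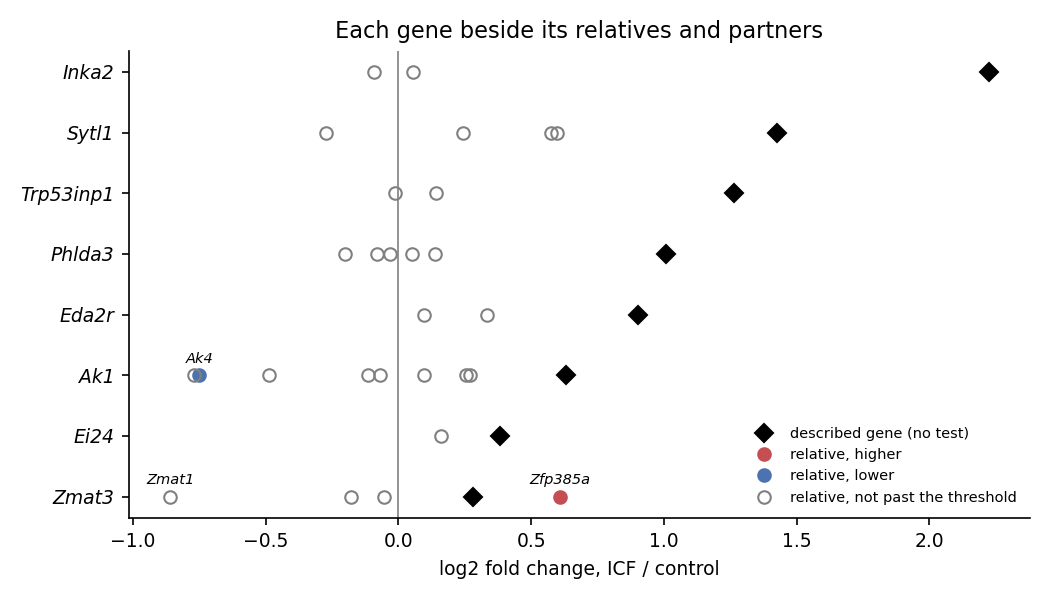
Log2 fold change of ICF against control (x axis) of 8 of the 9 genes (black diamonds, y axis) and of the 28 tested relatives and partners listed for each (circles, filled where past the edgeR threshold). Zfp385a (0.61) and Ak4 (-0.75) are the called relatives, and Zfp365 is not shown because no relative was listed for it.

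The nearest tested gene on each side of the 9 genes was examined to see whether the difference extended along the chromosome. Of these 18 neighbours, 1 rose, none fell and 17 did not pass in edgeR's quasi-likelihood test, where 3.47% of all tested genes were called higher and 4.38% lower, and 5 were under 1 CPM in both groups. With the replicate block 4 rose and 3 fell, against 14.6% and 15.3% of all tested genes. Eng, which encodes the TGF-β co-receptor endoglin, lies 11537 bases from Ak1 and rose from 28.4, 27.9 and 29.9 CPM to 44.1, 45.0 and 45.5 CPM (log2 fold change 0.64, SE 0.03, edgeR adjusted p = 0.0012). Eng also stands in the study's list of leading genes from these samples. Map3k6, a stress-activated kinase gene 161 bases from Sytl1, had a log2 fold change of 0.31 (SE 0.09, edgeR adjusted p = 0.16).

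Markers of the cells in the constructs were checked beside these values. The 10 pluripotency markers were all detected, with a summed level of 3550 to 4230 CPM in the control and 3400 to 3900 CPM with ICF, and none was called in edgeR without a block. The 10 fibroblast and feeder markers summed to 223 to 250 CPM in the control and 251 to 274 CPM with ICF, Col1a1 and Col3a1 were called higher, and Lum, Fap and Postn were under 1 CPM. Pdgfra made up most of these sums, with means of 177.9 CPM in the control and 182.0 CPM with ICF (log2 fold change 0.03). The sums therefore say little about the other markers of this group. The 6 neural markers summed to 122 to 131 and 118 to 128 CPM, the 6 endoderm markers to 359 to 376 and 353 to 394 CPM with Sox17 called lower, and the 6 endothelial and blood markers to 61.2 to 76.6 and 61.7 to 93.9 CPM. No marker was at 0 in all samples. With the replicate block 7 of the 33 tested markers were called higher and 6 lower, among the latter the pluripotency markers Klf4, Dppa5a and Utf1, and DESeq2 called 7 of the 33, Dppa5a included. The part of the fibroblast and feeder markers in the levels of the 9 genes was not tested.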

How the data were processed

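RNA sequencing of 3 ICF-treated and 3 control samples was analysed from whole-number counts per gene that the authors deposited without normalization. Per the labels and methods, reads were trimmed with Trimmomatic, mapped with HISAT2 and counted with HTSeq; the strand setting and tool versions are not given in the sources used here. The submitters' processing notes list GRCm38 and hg38 without a role, and all identifiers were mouse. HTSeq leaves out reads with several alignments. Entries that name no gene held 38.1% to 40.3% of the reads and were left out. The counts on genes summed to between 28711166 and 34194413 per library, and those of the lowest member, Sytl1, were 60 to 210. Most counts of ICF replicate 3 were multiples of 4, so whether each stands for 1 separate read is not known. Names and coordinates came from GENCODE M21 (GRCm38).

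The quasi-likelihood test of edgeR (version 4.0.16, R 4.3.3) was run on the counts after TMM scaling and its default filter on low counts, with no block and a Benjamini-Hochberg threshold of 0.05, over 16729 genes. The procedure was tested on simulated data. CPM are means and SDs over 3 samples, and standard errors came from log2 CPM (prior count 2). The members and gene lists were chosen with earlier results of these data known. Named were all 9 members with each neighbour, the 5 genes most alike by Pearson r, and from each list up to 12 called by size and up to 6 not called, plus Trp53, Mdm2, Cdkn1a and Bax; 1 gene that did not pass is not reported here. Samples were paired by the donor numbers in the labels, which do not state a shared donor or experiment. Deviations from the group means correlated at 0.15, 0.197 and 0.376 for same-numbered samples and at -0.343 to 0.263 for others. Only the value of replicate 3, 0.376, lay above all values of the others, so pairing of replicates 1 and 2 is not shown by these values. Alternatives were DESeq2 1.42.0, RLE size factors, filters of at least 1 count in any or 10 in every sample, the replicate block, ICF replicate 3 divided by 4, and each sample left out. The p53 search used the RefSeq promoter table of GRCm38.p6, since no genome was given.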

Additional observations from a re-analysis of the deposited data

How the results depend on the processing

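The median log2 fold change of the 9 genes was 1.01 and stayed between 0.98 and 1.11 under 12 alternatives. Among these, dividing ICF replicate 3 by 4 leaves fold changes nearly as they were by construction. Of 108 values of single members under these alternatives, 98 moved by less than the SD of that gene's log2 ratios over the same-numbered pairs. The other 10 moved by more, all in fits that left out 1 sample, and none of the 108 changed sign. This measure rests on the donor numbers in the labels, which do not state a shared donor or experiment. The number of p53 pathway genes called higher, 20, was 20 to 25 with RLE size factors, DESeq2, other filters or the divided counts, 30 with the replicate block, and 8 to 22 when 1 sample was left out. Of the relatives, 2 were called, 8 with the replicate block and 2 to 4 when 1 sample was left out, with 4 without ICF replicate 3. Leaving out 1 sample turned the sign of uncalled values near 0, with log2 fold changes from -0.004 to 0.093 for Trp53, from -0.021 to 0.104 for Bax, from -0.096 to 0.023 for Ddb2 and from -0.203 to 0.197 for Inka1. The replicate block changed the call of 5 named list genes (Mdm4, Thbs1, Xpc, Zmat1 and Rab27a), of 3 pluripotency markers and of 6 neighbours, and no other call of a gene named here. Mdm4, Thbs1 and Rab27a also passed in DESeq2 (adjusted p = 0.018, 0.024 and 0.028) and with at least 1 count in any sample. Zmat1 also passed with at least 10 counts in every sample and with the divided counts. Without ICF replicate 3 Zmat1 and Rab27a passed, and without control replicate 3 Mdm4 did. Xpc passed with the block only. With at most 1 mismatch, 0 of the 7 genes with a promoter window held a p53 consensus match, against 0.0601% of the 11642 tested genes with one. Wider windows around the gene starts were not run, since no genome was given. Counted by gene and fit, 11 calls of named genes were lost, all of them of Mdm2, Polk, Cdkn1a, Tnfrsf10b or Ddit4. Each was lost without control replicate 1, control replicate 2 or ICF replicate 1, and the cause was not tested. Depth limits Sytl1 and Inka2 most, the members with the lowest counts.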
